A study of Mus musculus with 2 samples.

Results

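Ly6c2 monocytes are the cells of mouse gliomas whose counts hold both Lyz2, the myeloid lysozyme gene, and Ly6c2, which encodes the Ly6C surface antigen of blood monocytes. They were chosen by their own unique molecular identifiers (UMIs, each standing for 1 captured RNA molecule), among cells with at least 500 UMIs, at least 200 genes and at most 20% mitochondrial UMIs. A member had at least 2 UMIs of Lyz2 and at least 2 of Ly6c2, at most 1 UMI of the T cell genes Cd3d, Cd3e and Cd3g together, at most 4 of the neutrophil genes S100a8 and S100a9 together, and 0 of Flt3, Siglech and Ncr1, which mark dendritic cells, plasmacytoid dendritic cells and natural killer (NK) cells. The macrophage genes Arg1 and Mrc1 together had at most 2 UMIs, or under 10 per 10000 UMIs of the cell. The rule found 290 of 15723 cells, 150 of 7967 in the EM library and 140 of 7756 in the PBS library. Levels of these rule genes are therefore descriptions of the choice, and so are Plac8, Ccr2, Rsad2 and Slfn4, which were named as markers of these cells with results of the same data known.

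The study sorted living CD45.2-positive, CD45.1-negative immune cells, which the labels call endogenous, from mouse glioma specimens after treatment, and sequenced them on the BD Rhapsody platform, where single cells settle into microwells with barcoded beads. The EM group was treated with an agent named only as EM, and its title adds 72 h; the PBS group received phosphate-buffered saline, with no time given. Strain, age, sex, tumour line and the number of pooled animals are given for neither group in the sources used here. Each group is 1 library, so the comparison has no replicate check and no test: every interval below is an exact 95% interval for counting error only, and differences between animals, sorts or library preparations cannot be told apart from the treatment.

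PBS cells held more UMIs than EM cells. Cells that passed the filter held 19302929 UMIs in EM and 43538431 in PBS. The median member had 3193.5 UMIs in EM and 5947.5 in PBS, and the summed members held 500770 and 963218 UMIs in EM and PBS. The libraries also differed in genes of the sex chromosomes: summed over members, Xist, the RNA of the inactive X chromosome, had 120 UMIs in EM and 0 in PBS, while the Y-linked Ddx3y had 2 UMIs in EM and 175 in PBS. Animals of unlike sex thus cannot be told apart from the treatment. Of all barcodes, 66 occurred in both files and 62 in both after the filter, among them 0 EM members and 1 PBS member.

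As background, Ly6C-high monocytes are made in the bone marrow, leave it through the chemokine receptor CCR2, and in inflamed tissue or tumours become macrophages or dendritic-type cells, losing Ly6C as they do. Type I interferon binds the receptor made of IFNAR1 and IFNAR2 and activates transcription factors that include STAT2 and IRF9, which bind the interferon-stimulated response element (ISRE) in the promoters of antiviral genes. Monocytes respond strongly to it, whereas class II major histocompatibility complex (MHC) genes answer mainly to interferon gamma through the coactivator CIITA.

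Levels of the named marker genes are set beside those of macrophages of the same library, taken as cells that met the same Lyz2 and lineage limits, had at least 3 UMIs of the complement genes C1qa, C1qb and C1qc together and at most 1 of Ly6c2. There were 444 such macrophages in EM, with a median of 865.5 UMIs, and 1194 in PBS, with a median of 10324.5. Levels are counts per 1000000 UMIs of the summed cells (CPM). Plac8, abundant in Ly6C-high monocytes, had 6280 CPM in EM members and 1711 in PBS members, against 83.8 CPM in EM macrophages and 134 in PBS macrophages. Ccr2 had 919 CPM in EM members and 649 in PBS members, against 143 and 85.5 CPM in EM and PBS macrophages. Slfn4, a Schlafen gene of myeloid cells, had 1739 CPM in EM members and 148 in PBS members, against 49.0 and 7.72 CPM in the macrophages. In both libraries the 3 genes were higher in the members than in the macrophages, which describes markers that were named with these data known and is no independent check of the label. Rsad2, also named as a marker, had 1919 CPM in EM members and 43.6 in PBS members. Cells with 0 Ly6c2 UMIs that met every other limit had 220 CPM of it in EM and 66.7 in PBS. In PBS it thus did not set the members apart from those cells. Ly6c2 itself also occurs in T cells, with 2624 CPM in EM and 555 in PBS T cells (at least 3 Cd3 UMIs), so it does not mark monocytes alone. Its near-identical neighbour Ly6c1 had 1 UMI in the members of each library, and reads that fit both genes may have been assigned to either.

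**Figure D1:**
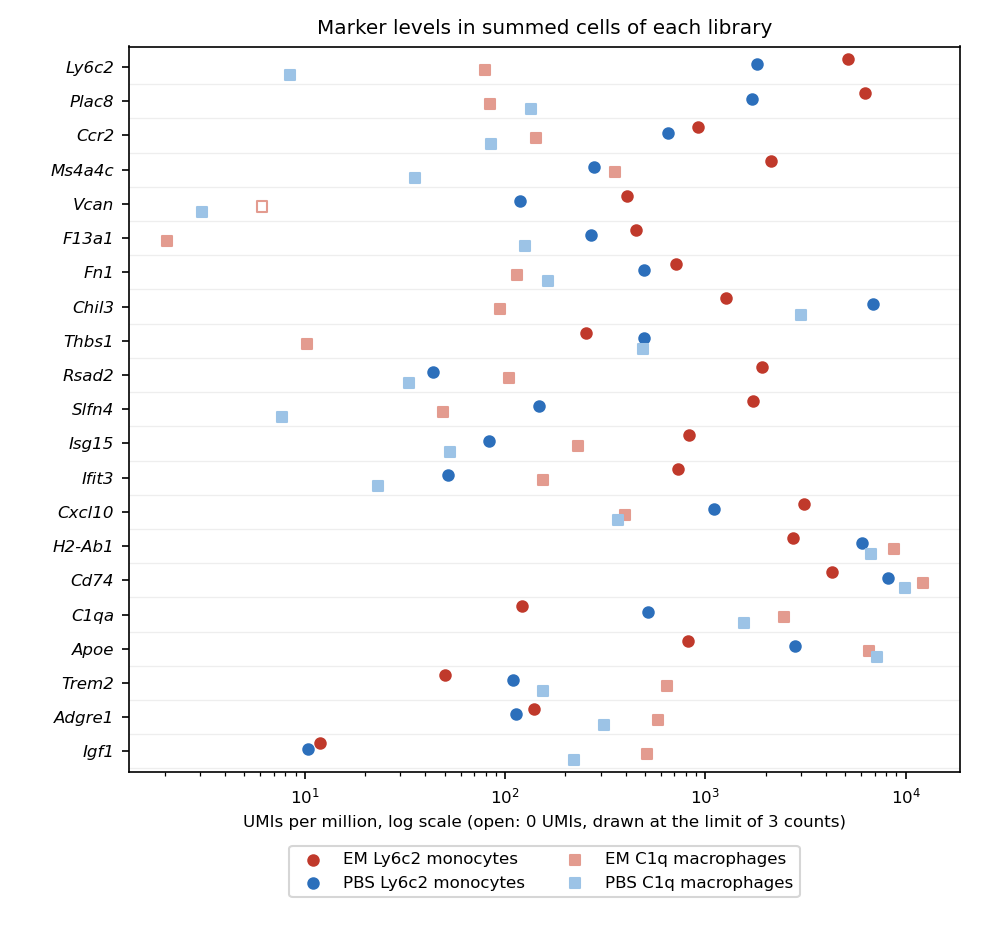
Level of each gene (rows) in CPM on a log scale, in the summed cells of 1 library each; circles are Ly6c2 monocytes and squares are C1q macrophages, red for EM and blue for PBS. Plac8, Ccr2 and Slfn4 lie further right in the circles than in the squares of the same colour, C1qa, Apoe and Igf1 further left, and the open square is Vcan at 0 UMIs, drawn at the limit of 3 counts.

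Markers of other cell types were present in most members. All but 26 of 150 EM members and 7 of 140 PBS members held at least 2 UMIs of the T, NK, B, plasma, conventional dendritic or neutrophil markers together. The 15 T cell markers summed to 389 CPM in EM members and 155 in PBS members, against 12162 and 10233 CPM in the T cells of EM and PBS, and the 10 NK cell markers to 523 CPM in EM members and 125 in PBS members. In EM, 1 cell held 95.5% of the members' Gzma UMIs. Plasma cell markers reached 399 CPM in EM members and 10216 in PBS members. At least 2% immunoglobulin UMIs were found in 0 EM members and 3 PBS members. Within these 3 cells the immunoglobulin gene Igkc had 428947 CPM and Plac8, Ccr2 and Csf1r had 0 UMIs, so they met the rule but lacked the monocyte genes. Neutrophil markers summed to 371 CPM in EM members and 816 in PBS members, with Ly6g, Ngp, Camp and Ltf at 0 in both, against 170 CPM in all EM cells and 769 CPM in all PBS cells. Plasmacytoid dendritic cell markers summed to 765 CPM in EM members and 471 in PBS members, against 1129 and 572 CPM in all cells of EM and PBS. The part of these other cell types in the results below was not tested beyond the settings named there. Microglia markers reached 511 CPM in EM members and 425 in PBS members, while EM macrophages had 5264 CPM and PBS macrophages 666. Each list median of EM over PBS in the members is as large, within 0.03 on the log2 scale, without the 3 immunoglobulin-rich cells. The list results of members over macrophages were not recomputed without them.

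Among all cells that passed the filter, members made up 1.88% in EM (Clopper-Pearson interval 1.60 to 2.21) and 1.81% in PBS (1.52 to 2.13), a ratio of 1.04 (0.823 to 1.32). This ratio holds for the whole rule, whose limits took out more PBS than EM cells. The Lyz2 and Ly6c2 limits alone kept 211 EM and 282 PBS cells, and the Arg1 and Mrc1 limit then left 204 and 216. Among cells with at least 2 Lyz2 UMIs, members were 150 of 760 (19.7%) in EM and 140 of 1951 (7.18%) in PBS, a ratio of 2.75 (2.17 to 3.49). C1q macrophages, part of that denominator, were 5.57% of cells in EM and 15.4% in PBS, a ratio of 0.362 (0.324 to 0.404). A minimum number of UMIs takes in more cells where cells are deeper, while a maximum takes out more there. The maxima applied after the Arg1 and Mrc1 limit took the 204 EM and 216 PBS cells down to 150 and 140. Thinning changes the reach of both kinds of limit. In a further setting, cells with at least 1000 UMIs were first thinned to that depth, and shallower cells were left out of members and totals alike. The rule then took 119 EM cells and 68 PBS cells, and the ratio of shares was 1.73. Without thinning, but without members that carried at least 3 C1q UMIs, the ratio was 1.47 (125 and 83 cells). The sort gate sets which cells could be counted, so these are shares of sorted cells.

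Of 22 gene lists, that of genes induced by type I interferon had the highest median ratio of EM over PBS in the monocytes. Of a list of 60 such genes, 58 were measured (at least 20 UMIs in both groups together; the other 2 are not analysed here), and 52 of the 58 were at least 2-fold higher in EM, with 0 at least 2-fold lower. Among all 6809 measured genes, 605 (8.89%) were at least 2-fold higher in EM and 1345 (19.8%) at least 2-fold lower. These shares are the background for each list count of EM over PBS in the monocytes below. The direction of this split depended on the processing. With members thinned to 1000 UMIs, 2556 genes were measured, of which 367 (14.4%) were higher and 353 (13.8%) lower. With the rule applied to cells thinned to 1000 UMIs, 1739 were measured and the split turned round, with 284 (16.3%) higher and 167 (9.60%) lower. Without thinning, a stricter minimum of UMIs per gene gave 289 genes higher and 306 lower. The part of depth, apart from that of the genes measured and the cells chosen, was not tested. The median log2 ratio of EM over PBS was 2.19 over the list and -0.27 over all measured genes. Counting intervals lay above equality for 57 members of the list and below it for 1, Ly6a, which encodes the Sca-1 antigen (-0.47).

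The effectors of this response included the genes with the highest ratios. Rsad2, which encodes the antiviral enzyme viperin (chr12:26442746-26456452, minus strand, GRCm38), had 961 UMIs (1919 CPM) in EM members and 42 UMIs (43.6 CPM) in PBS members, a log2 ratio of 5.46 (5.01 to 5.94; 4.55 with members thinned to 1000 UMIs). Cmpk2, a mitochondrial nucleotide kinase gene beside Rsad2, had 367 CPM in EM and 10.4 in PBS (5.15). Ifit3b, a paralog of Ifit3, had 77 UMIs in EM and 3 in PBS, a log2 ratio of 5.63 (4.02 to 7.93). The level of Ifit3b stands on so few PBS molecules that its interval spans many fold, and reads of the near-identical Ifit3 and Ifit3b may be split between them. With the rule applied at 1000 UMIs, Cmpk2 had 29 UMIs in EM and 0 in PBS and Ifit3b 26 and 0, so at that depth only lower bounds can be given, of 2.47 for Cmpk2 and 2.31 for Ifit3b. Isg20, an exonuclease gene, had 655 CPM in EM and 17.6 in PBS, a log2 ratio of 5.21 (4.51 to 6.01). Ifit1, Ifit2 and Ifit3, whose proteins bind viral RNA, had 673, 595 and 727 CPM in EM members, against 40.5, 49.8 and 51.9 CPM in PBS members. Their log2 ratios were 4.05, 3.58 and 3.81 over all members, and 2.67, 2.76 and 2.89 with the rule applied at 1000 UMIs. Isg15, a ubiquitin-like modifier, had 829 CPM in EM and 83.1 in PBS (log2 3.32, 2.97 to 3.68; 2.64 with members thinned to 1000 UMIs), and Usp18, the protease that removes it, 365 CPM in EM and 24.9 in PBS (3.87; 2.70 with the rule applied at 1000 UMIs). Slfn4 reached 1739 CPM in EM and 148 in PBS, a log2 ratio of 3.55 (3.29 to 3.82; 2.25 with the rule applied at 1000 UMIs).

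In the promoters of several of these genes the letters of an ISRE core can be read directly. The sequences below, from RefSeq on GRCm38.p6, span 250 bases before to 50 bases after the start of the gene and were picked to show the motif: among the list's genes with a log2 ratio of at least 3, 14 had a promoter in the table, 7 of those held the motif, and 4 of these 7 are printed; capitals mark the only motif searched, GAAA, any 2 bases (NN) and GAAA in a row, or TTTC, NN and TTTC where it lies on the other strand. Rsad2 (chr12:26456403-26456702, minus strand) has 1 match, starting 120 bases before the gene's start; Ifit3 (chr19:34583279-34583578, plus strand) has 2, at 156 and 122 bases; Ifit1 (chr19:34640639-34640938, plus strand) has 2, at 104 and 85 bases; and Isg15 (chr4:156200769-156201068, minus strand) has 3 that overlap, at 78, 72 and 66 bases.
Rsad2: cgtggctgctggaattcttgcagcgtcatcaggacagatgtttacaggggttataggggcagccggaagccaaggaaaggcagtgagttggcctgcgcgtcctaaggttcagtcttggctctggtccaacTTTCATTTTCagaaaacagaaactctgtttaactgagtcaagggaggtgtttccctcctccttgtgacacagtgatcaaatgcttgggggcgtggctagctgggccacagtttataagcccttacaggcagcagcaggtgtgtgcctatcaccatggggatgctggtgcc
Ifit3: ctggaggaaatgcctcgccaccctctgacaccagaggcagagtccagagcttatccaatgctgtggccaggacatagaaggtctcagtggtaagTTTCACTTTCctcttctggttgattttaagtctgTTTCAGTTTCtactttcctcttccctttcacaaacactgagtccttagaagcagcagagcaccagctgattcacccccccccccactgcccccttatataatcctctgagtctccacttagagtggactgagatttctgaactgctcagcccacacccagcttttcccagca
Ifit1: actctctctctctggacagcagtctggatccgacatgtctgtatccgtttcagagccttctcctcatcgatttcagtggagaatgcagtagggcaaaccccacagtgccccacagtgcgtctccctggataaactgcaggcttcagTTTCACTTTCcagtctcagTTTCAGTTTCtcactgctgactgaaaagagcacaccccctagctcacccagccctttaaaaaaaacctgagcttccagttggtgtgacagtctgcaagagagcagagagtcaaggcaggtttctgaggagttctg
Isg15: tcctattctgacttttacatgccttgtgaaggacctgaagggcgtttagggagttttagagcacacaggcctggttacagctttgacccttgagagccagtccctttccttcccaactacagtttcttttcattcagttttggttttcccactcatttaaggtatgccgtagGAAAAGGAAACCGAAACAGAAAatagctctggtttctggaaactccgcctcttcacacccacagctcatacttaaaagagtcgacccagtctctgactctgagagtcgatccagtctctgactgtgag

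Over the list, 46 of the 58 measured genes matched a promoter of the table by symbol, and 23 of them (50%) held the motif, against 247 of 5443 (4.54%) of the other measured genes and 1079 of 27025 (3.99%) of all genes with a promoter. Among lists that were lower in EM, the motif was in 1 of 6 MHC class II genes and in 1 of 17 hypoxia genes. Isg20, Cmpk2, Slfn4, Ifit2 and Irf7 held no match in this window, which says only that these letters are not there. A match is a description of the sequence and not a measured site.

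Regulators and sensors of the pathway had mostly smaller ratios. Irf7, the transcription factor that amplifies interferon production, had 589 CPM in EM members and 96.6 in PBS members (log2 2.61, 2.27 to 2.96; 1.86 with the rule applied at 1000 UMIs), Stat2 a log2 ratio of 1.40 and Irf9 of 0.94. Of 18 measured nucleic acid sensing genes, 8 were at least 2-fold higher and 1 lower in EM, with a median of 0.71. Ddx58, which encodes the RNA sensor RIG-I, had 389 CPM in EM and 35.3 in PBS (3.46, 2.93 to 4.03; 2.51 with the rule applied at 1000 UMIs), and the sensor genes Ifih1, Zbp1 and Cgas had log2 ratios of 1.99, 1.77 and 1.69. Ikbke, a kinase gene downstream of these sensors, was the lower member (-1.19), and the adaptor gene Sting1 had 0.74. Of the receptor genes, Ifnar1 had 108 CPM in EM and 42.6 in PBS (1.34, 0.73 to 1.96), and Ifnar2 had 158 and 109 CPM in EM and PBS (0.53, 0.09 to 0.97). The interferon gamma receptor gene Ifngr1 had 124 CPM in EM and 268 in PBS (-1.11, -1.54 to -0.71), while its partner Ifngr2 had a log2 ratio of 0.79. The receptor genes thus did not share a direction.

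The difference was spread over the members and not carried by a few. With each cell thinned to 1000 UMIs, a member held a median of 43 UMIs of the type I interferon list in EM (quartiles 30.5 and 57, 143 cells) and 11 in PBS (quartiles 7 and 17, 140 cells); 7 EM members had under 1000 UMIs and were left out. The corresponding medians were 17 UMIs in EM and 6 in PBS macrophages, and 13 in EM and 5 in PBS T cells, so EM cells of all 3 classes had more. The macrophage medians rest on 175 of 444 EM macrophages and 1161 of 1194 PBS macrophages, since 269 in EM and 33 in PBS had under 1000 UMIs. Rsad2 was detected in 78 of 143 thinned EM members (54.5%) and 7 of 140 PBS members (5.00%), against 8.06% of EM and 1.25% of PBS T cells. Slfn4 was detected in 56.6% of thinned EM members and 12.1% of PBS members, against 0.284% and 0.756% of EM and PBS T cells. In each library both genes were thus detected in a larger share of members than of T cells, as a description of genes named as markers; T cells can also express Rsad2 under interferon, so their share is not free RNA alone. When the rule itself was applied to cells thinned to 1000 UMIs, the list median was 1.68, with 41 of 51 measured genes at least 2-fold higher in EM, 2 of the 51 at a bound because 1 group had 0 UMIs. Without members that held 2 or more UMIs of other cell types' markers, which left 26 EM and 7 PBS cells, it was 2.46.

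**Figure D2:**
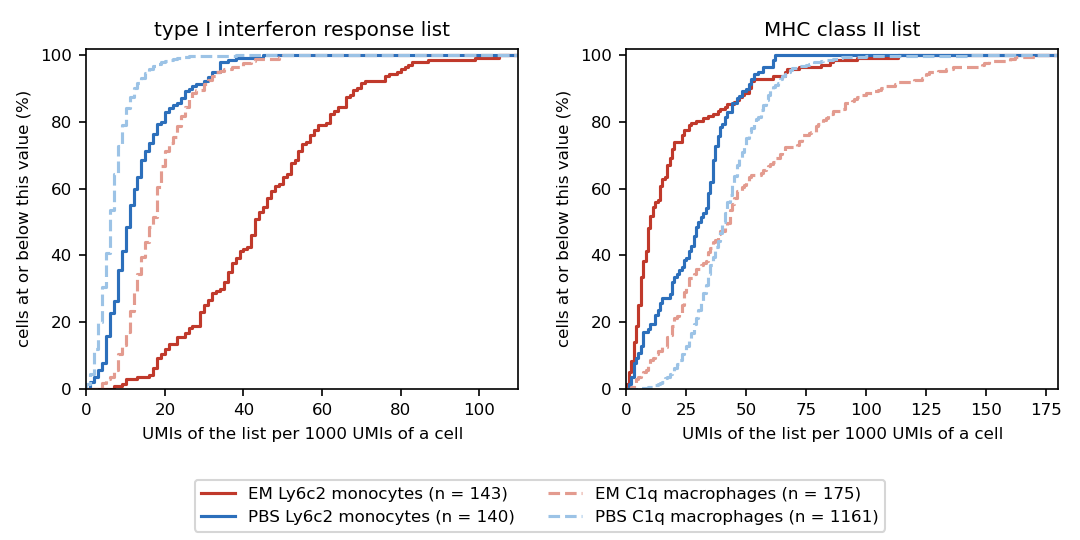
Cumulative share of cells (vertical axis, percent) at or below a number of list UMIs per 1000 UMIs of a cell (horizontal axis), for the type I interferon list (left) and the MHC class II list (right); solid lines are Ly6c2 monocytes, dashed lines C1q macrophages, red for EM and blue for PBS. EM monocytes lie furthest right for the interferon list (median 43, against 11 in PBS monocytes) and furthest left over most of the MHC class II list (median 10, against 30.5).

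With all members summed, MHC class II genes were lower in EM monocytes. Of 9 measured genes, 0 were at least 2-fold higher and 6 at least 2-fold lower in EM, and the median log2 ratio was -1.11; with the rule applied at 1000 UMIs, 2 of 8 were lower and the median was -0.79. H2-Ab1, the beta chain of the I-A molecule, had 2724 CPM in EM members and 6071 in PBS members (log2 -1.16, -1.24 to -1.07), and Cd74, the invariant chain that guards the peptide groove, 4291 CPM in EM and 8181 in PBS (-0.93). H2-DMb1 and H2-DMb2, subunits of the peptide loader, had log2 ratios of -1.53 and -2.36 (H2-DMb1 -0.71 with the rule applied at 1000 UMIs), while Ctss, the protease that trims the invariant chain, had 6484 CPM in EM and 6698 in PBS (-0.05, -0.11 to 0.01). Ciita had 99.8 CPM in EM and 190 in PBS (-0.93), but 0.10 when the rule was applied at 1000 UMIs. In members with under 3 C1q UMIs the class II list had 14728 CPM in EM and 24207 in PBS. Members with at least 3 C1q UMIs lay the other way, with 42657 CPM in EM and 37714 in PBS. Per 1000 UMIs, members held a median of 10 class II UMIs in EM and 30.5 in PBS, whereas macrophages held 43 in EM (the 175 of 444 with at least 1000 UMIs) and 40 in PBS (1161 of 1194). In macrophages the list median of EM over PBS was 0.20, with 0 of 11 genes at least 2-fold higher and 2 lower, against 14.0% of all 11294 genes measured in macrophages (1576) higher and 20.1% (2272) lower. The difference between the cell classes was not tested. MHC class I genes, which interferons of both types induce, had a median of -0.09 in the monocytes, with 1 of 20 higher and 1 lower.

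Genes of hypoxia and of glycolysis were also lower in EM monocytes. Of 20 hypoxia genes, 0 were at least 2-fold higher and 11 lower (median -1.17), against 8.89% higher and 19.8% lower over all measured genes. With the rule applied at 1000 UMIs, 7 hypoxia genes were measured, 0 of them were lower by this limit and their median was -0.60. Bnip3, a mitophagy receptor induced by the factor HIF-1, had 12 UMIs in EM and 138 in PBS (log2 -2.58, -3.57 to -1.73), Egln3, an oxygen-sensing prolyl hydroxylase gene, had 4 UMIs in EM and 70 in PBS (-3.19, -5.10 to -1.77), and Hif1a itself had 232 CPM in EM and 263 in PBS (-0.18, -0.51 to 0.14). Vegfa, the vascular growth factor, had 73.9 CPM in EM and 219 in PBS (-1.57), but a log2 ratio of -0.17 when the rule was applied at 1000 UMIs. Of 17 glycolysis genes, 0 were higher and 6 lower (median -0.81; -0.60 with 3 of 13 lower at 1000 UMIs), among them Tpi1 with 89.9 CPM in EM and 416 in PBS (-2.21, -2.69 to -1.76; -1.09 with the rule applied at 1000 UMIs) and Gpi1 with 75.9 and 304 CPM (interval -2.53 to -1.51). Of 45 oxidative phosphorylation genes, 1 was at least 2-fold higher and 5 lower, a smaller share on either side than over all measured genes. The higher one was Cycs, which encodes cytochrome c (1.21). Below 2-fold the list shared a direction, with 43 of the 45 below 0 and a median of -0.44, against -0.27 over all measured genes. Counting intervals lay below equality for 24 of them and above it for 1. At 1000 UMIs a member held a median of 1 hypoxia UMI in EM and 3 in PBS. In macrophages the hypoxia list had a median of -1.52, so EM was lower in both classes, while the oxidative phosphorylation list had 0.34.

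**Figure D3:**
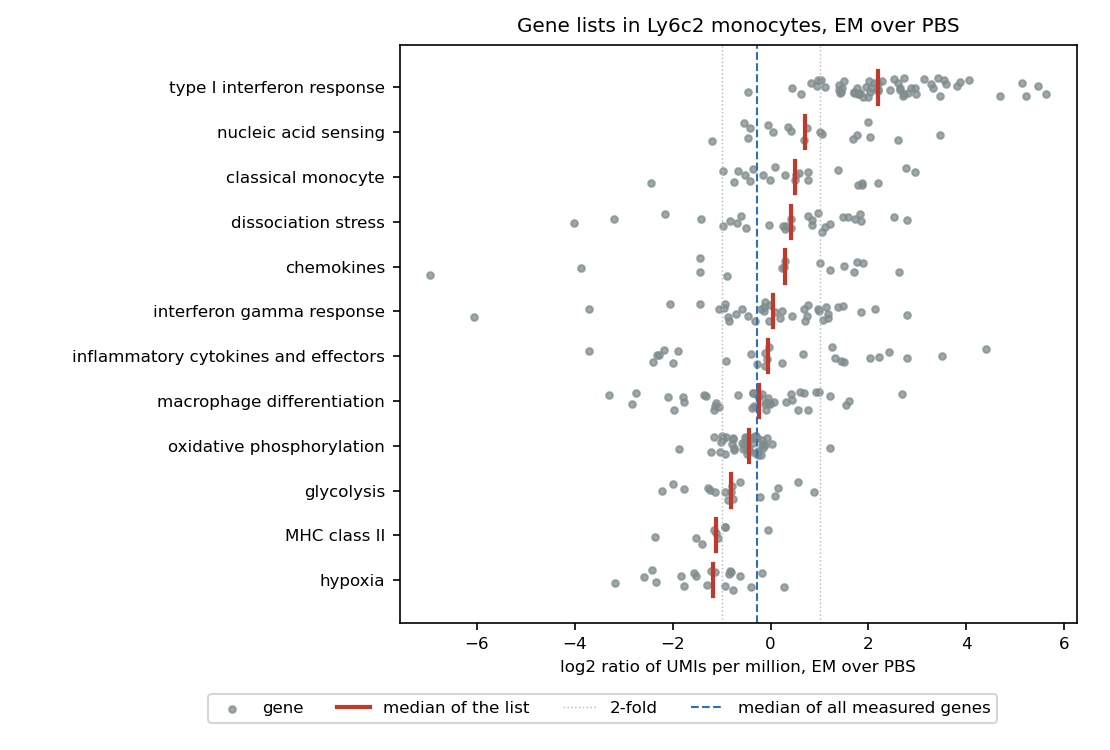
Log2 ratio of CPM, EM over PBS, of each measured gene (grey points) of 12 lists in Ly6c2 monocytes; red bars are list medians, the dashed blue line is the median of all measured genes and dotted lines mark 2-fold. The type I interferon list lies to the right (median 2.19), and the hypoxia and MHC class II lists to the left (-1.17 and -1.11).

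Chemokine genes lay in both directions. Of 15 measured, 7 were at least 2-fold higher in EM and 4 lower, against 8.89% and 19.8% over all measured genes. Cxcl10, which draws T cells through CXCR3 and responds to both interferon types, had 3103 CPM in EM members and 1105 in PBS members (log2 1.49, 1.38 to 1.60; 0.70 with the rule applied at 1000 UMIs). Cxcl9, a ligand of the same receptor that answers chiefly to interferon gamma, had 673 CPM in EM and 1833 in PBS (-1.45, -1.62 to -1.28). The monocyte attractant Ccl2 had 1256 CPM in EM and 368 in PBS (1.77, 1.58 to 1.97), the chemokine gene Ccl4 had 1494 and 403 CPM in EM and PBS (1.89), and Ccl9, a ligand of CCR1, had 641 and 104 CPM (2.63; 1.03 with the rule applied at 1000 UMIs). Ccl24, an eosinophil attractant of alternatively activated macrophages, had 1 UMI in EM and 238 in PBS (-6.95, -12.26 to -4.46). Ccl7, a relative of Ccl2, had a log2 ratio of -1.44 over all members, of 1.32 without those that carried at least 3 C1q UMIs, and of -2.89 with the rule applied at 1000 UMIs.

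Cytokines and effectors were split, with 10 of 26 measured genes at least 2-fold higher and 7 lower in EM. Over all measured genes, 8.89% were higher and 19.8% lower. Il1b, which encodes interleukin-1 beta, had 731 CPM in EM and 3653 in PBS (log2 -2.32, -2.48 to -2.17), and Nos2, the inducible nitric oxide synthase, had 0 UMIs in EM and 75 in PBS; set against the limit of 3 counts for the EM members, its log2 ratio is -3.70 or lower. Tnf had 951 CPM in EM and 399 in PBS (1.25, 1.06 to 1.45). Il15, a cytokine that sustains NK cells and memory T cells, had 154 CPM in EM and 13.5 in PBS (3.51, 2.65 to 4.48; 1.19 with the rule applied at 1000 UMIs, on 16 UMIs in EM and 4 in PBS), and Tnfsf10, the death ligand TRAIL, had 33 UMIs in EM and 3 in PBS (4.40, 2.73 to 6.75). The co-stimulatory gene Cd40 had 228 CPM in EM and 56.1 in PBS (2.02), whereas Cd80 had 49.9 and 263 CPM (-2.40) and Cd86 499 and 523 CPM (-0.07, -0.29 to 0.15; -0.70 with the rule applied at 1000 UMIs). Il15, Tnfsf10 and Cd40 were thus higher in EM, and Il1b, Nos2 and Cd80 lower. Of 38 genes on the interferon gamma list, 9 were higher and 5 lower (median 0.04).

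Suppressive mediators and receptors were split as well. Of 23 PD-1 ligands and immunosuppressive mediators, 3 were at least 2-fold higher and 8 lower in EM. Over all measured genes, 8.89% were higher and 19.8% lower. Cd274, which encodes PD-L1, had 288 CPM in EM and 553 in PBS (log2 -0.94, -1.22 to -0.68), and Pdcd1lg2, which encodes PD-L2, had 6 UMIs in EM and 115 in PBS (-3.32, -4.79 to -2.15). Lgals9, which encodes galectin-9, had 913 CPM in EM and 148 in PBS (2.62), and Il10 had 18 UMIs in EM and 5 in PBS (2.79, 1.31 to 4.58). The Fc receptor gene Fcgr1 had 473 CPM in EM and 108 in PBS (2.13), while the inhibitory Fcgr2b had 799 and 1945 CPM (-1.28). Of the chemokine receptors, Cxcr4 and Cx3cr1 had log2 ratios of 1.13 and 1.19, and Ccr1 of -0.45; Cxcr4 had 0.51 with the rule applied at 1000 UMIs. Of 22 alternative activation genes, 3 were higher and 11 lower (median -1.08), and that median was -0.02 over 10 genes when the rule was applied at 1000 UMIs.

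Genes of the sex chromosomes named above, markers of other cell types and receptor-segment genes were left out of the highest and lowest ratios; of the markers, Cd209a had 71 UMIs in EM and 0 in PBS. Besides interferon genes, the highest of the remaining ratios included Emp1, a membrane protein gene, with 166 CPM in EM and 13.5 in PBS (log2 3.62, 2.77 to 4.59), and the calcium pump gene Atp2b4 with 89.9 and 7.27 CPM (3.63). The lowest of them belonged to Igha, the immunoglobulin A heavy chain (-7.57), which was -0.75 without the 3 immunoglobulin-rich cells. Gbp2b, a guanylate-binding protein gene of the interferon gamma response, had 1 UMI in EM and 129 in PBS (-6.07, -11.38 to -3.56), and Saa3, an acute-phase gene, 1 and 80 UMIs (-5.38, -10.70 to -2.86). Cd38, an NAD-consuming surface enzyme, had 3 UMIs in EM and 181 in PBS (-4.97, -7.26 to -3.40), in 3 and 69 members of EM and PBS. Mmp12, the macrophage elastase, and Ear2, a ribonuclease gene, had log2 ratios of -4.43 and -4.25. Without members that carried at least 3 C1q UMIs, these were -2.78 and -3.52. The rest of the 12 lowest were Dip2c, Hs3st3b1, Net1, Sclt1, Lyz1 and Ccl24, between -5.86 (Dip2c) and -4.43 (Lyz1) for all but Ccl24.

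Genes of the classical monocyte programme did not share a direction. Of 23 measured, 7 were at least 2-fold higher and 1 lower in EM, with a median of 0.50, but the median was -0.28 over 19 genes when the rule was applied at 1000 UMIs. Ms4a4c, a membrane gene of monocytes that is also on the interferon list, had 2131 CPM in EM and 277 in PBS (2.94; 2.20 at 1000 UMIs). Vcan, the proteoglycan versican, had 407 CPM in EM and 118 in PBS (1.78) but -0.85 at 1000 UMIs, and F13a1, a clotting factor subunit, had 453 and 268 CPM (0.76) but -0.56. Chil3, the chitinase-like protein Ym1, was the lower gene, with 1266 CPM in EM and 6894 in PBS (-2.44, -2.56 to -2.33; -2.90 at 1000 UMIs). Of 16 measured non-classical monocyte genes, 5 were higher and 4 lower, with Ace and Spn at log2 2.14 and 1.94 on 16 and 14 EM UMIs, against 7 and 7 PBS UMIs, and Nr4a1 at -0.98.

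Members varied in how far they shared macrophage genes. At least 3 C1q UMIs were found in 25 of 150 EM members and 57 of 140 PBS members, and the part that the greater depth of PBS cells has in this was not tested. These members held 67516 of the 500770 summed UMIs in EM and 548337 of 963218 in PBS. They thus weigh more in every summed level of the PBS members than in those of EM. In EM the members without C1q had 47055 CPM of the interferon list and 2144 CPM of Rsad2, and those with C1q 35977 and 474 CPM; in PBS the members without C1q had 13336 CPM of the list and 48.2 of Rsad2, and those with C1q 10796 and 40.1. The library difference in the interferon list was thus present in both subsets. H2-Ab1 was at 0 UMIs in 71 EM members (47.3%) and 20 PBS members (14.3%), and at 10 or more in 39 EM and 103 PBS members. Members with H2-Ab1 at 0 had 50614 CPM of the interferon list in EM and 20430 in PBS, and members with 10 or more had 34298 in EM and 10924 in PBS. Across thinned members of 1 library, the rank correlation between interferon and class II UMIs was -0.32 in EM (143 cells) and -0.23 in PBS (140 cells), and that between interferon and Plac8 UMIs 0.43 in EM and 0.34 in PBS; the cells share a library and a fixed total of UMIs, and these are descriptions. In EM, 17 members held Cd209a, against 0 of 140 in PBS. It is a gene of monocyte-derived dendritic cells and also on the list of conventional dendritic cell markers used here. The 17 had 1088 CPM of it, 0 UMIs of C1qa, Apoe and Chil3, and 44392 CPM of the interferon list. Their Bcl11a was at 199 CPM, against 29.9 in the other EM members. Whether they are conventional dendritic cells was not tested. In thinned PBS cells Cd209a was also found in 0 of 1161 macrophages and 0 of 3837 T cells.

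At the threshold, members with exactly 2 Ly6c2 UMIs (14 in EM, 26 in PBS) had 2028 CPM of Plac8 in EM and 1527 in PBS, and 26535 CPM of the interferon list in EM and 11361 in PBS. Cells with 1 Ly6c2 UMI that met every other limit (49 in EM, 50 in PBS) had 1545 CPM of Plac8 in EM and 1130 in PBS, and 21570 and 9429 CPM of the list. The edge of the class is thus gradual in both libraries.

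Set against C1q macrophages of the same library, the monocytes had 1159 of 5562 measured genes (20.8%) at least 2-fold higher and 999 (18.0%) lower in EM, and 587 of 11370 (5.16%) higher and 1252 (11.0%) lower in PBS. These shares, which differ between the libraries, are the background for each list count of monocytes over macrophages below. The genes highest in monocytes of both libraries included S100a4 and S100a6, calcium-binding genes of motile cells, with log2 ratios of monocytes over macrophages of 5.83 and 4.84 in EM and 5.39 and 3.96 in PBS, and Ahnak, a large scaffold gene, with 3.67 in EM and 3.57 in PBS. Ifitm6 had 6.18 in EM and 3.19 in PBS, Hp, the haemoglobin scavenger haptoglobin, 5.10 and 3.52, and Plcb1 3.22 and 4.43. Vcan had 204 UMIs in EM monocytes and 0 in EM macrophages, and 5.28 in PBS. Of 23 classical monocyte genes, 21 were at least 2-fold higher in monocytes in EM and 15 in PBS, which the choice of members by Ly6c2 and of macrophages by its absence fixes in part.

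Macrophage genes lay the other way, as the choice by C1q fixes in part. Of 42 measured macrophage differentiation genes in EM, 31 were at least 2-fold lower in monocytes (median -2.08), and of 44 in PBS, 28 (median -1.36). The lowest of all in both libraries were Ccl8, a chemokine gene with 0 UMIs in EM monocytes and 2 in PBS monocytes (log2 -7.32 in PBS), the collagenase gene Mmp13 (-5.33 in EM, -6.31 in PBS), the growth factor gene Igf1 (-5.41 and -4.41) and the adhesion gene Vcam1 (-5.50 and -3.45). Tspan7, Adamdec1, Cp, Hpgds, Npl and H2-M2 lay between -6.08 and -3.30 in EM and between -4.28 and -2.80 in PBS. In EM the macrophages were shallow and held 5264 CPM of microglia markers, so the 2 macrophage sets differ in depth and makeup, and their part in the difference between libraries was not tested.

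Monocytes of both libraries had more of the type I interferon list than macrophages. The 2 classes were chosen on Ly6c2, at least 2 UMIs in monocytes and at most 1 in macrophages. Across thinned members the rank correlation between Ly6c2 and interferon UMIs was 0.07 in EM and 0.34 in PBS. The part that the choice has in the difference between the classes was not tested. Of 58 genes, 46 were at least 2-fold higher and 3 lower in EM monocytes (median 1.83), and 23 higher and 1 lower in PBS monocytes (median 0.72). Over all measured genes, 20.8% were higher and 18.0% lower in EM monocytes, and 5.16% higher and 11.0% lower in PBS monocytes. Rsad2 had log2 ratios of monocytes over macrophages of 4.20 in EM and 0.39 in PBS, and Cmpk2 of 4.03 and 0.67, whereas Irf7 had 1.31 and 1.43. Between the libraries, the list's median of EM over PBS was 2.19 in monocytes and 1.51 in macrophages. In macrophages 38 of 58 genes were at least 2-fold higher and 1 lower, against 14.0% and 20.1% of all genes measured there. Dissociation stress genes, immediate early and heat shock genes that also respond to tissue handling, had medians of monocytes over macrophages of 3.23 in EM and 0.00 in PBS, and of EM over PBS of 0.42 in monocytes and -2.43 in macrophages. Among them Atf3 had 1268 CPM in EM members and 220 in PBS members (log2 2.53) and Egr2 87.9 and 805 CPM (-3.19). Cell cycle genes had a median of EM over PBS of -0.97 in monocytes, with 0 of 18 higher and 9 lower, and 1.23 in macrophages. When every cell had equal weight, that monocyte median came to 0.25, and 1 PBS cell held 79.5% of the Ube2c UMIs.

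**Figure D4:**
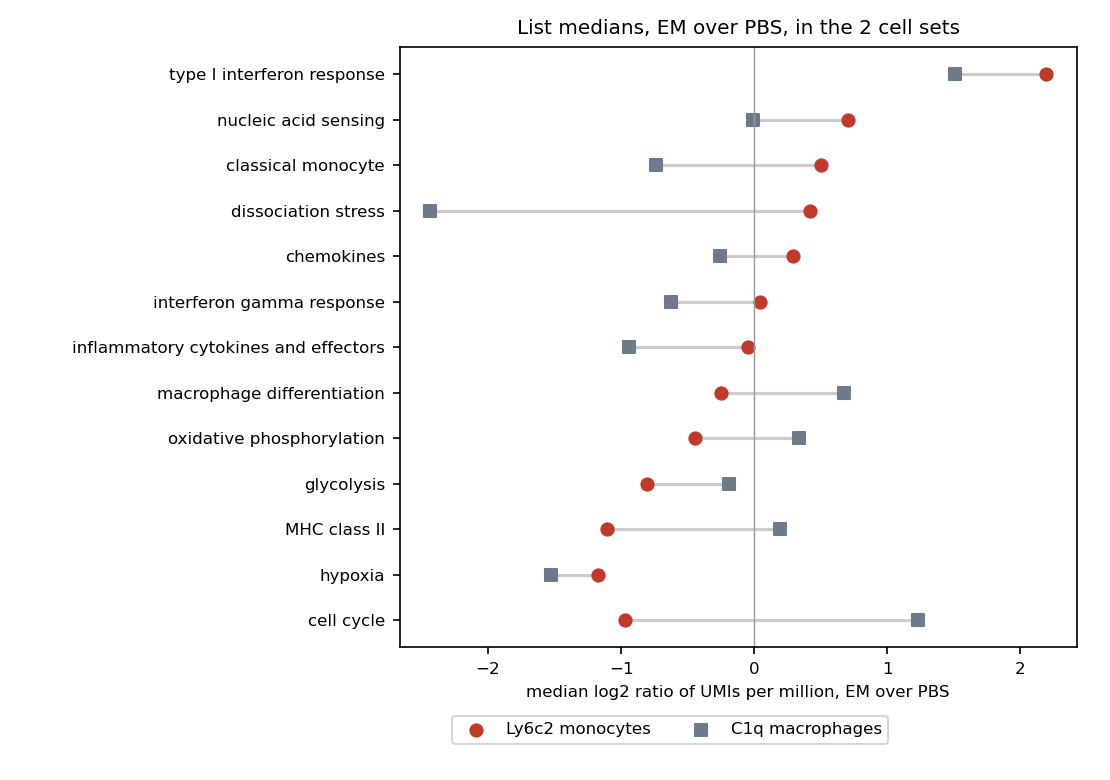
Median log2 ratio of CPM, EM over PBS, of 13 gene lists in Ly6c2 monocytes (red circles) and C1q macrophages (grey squares). The type I interferon list lies above 0 in both classes (2.19 and 1.51) and hypoxia below 0 in both (-1.17 and -1.52), while MHC class II (-1.11 and 0.20) and cell cycle (-0.97 and 1.23) lie on opposite sides; with equal weight per cell the cell cycle value of the monocytes was 0.25.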

How the data were processed

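Single-cell RNA-seq was measured in 2 libraries, 1 per group, so depth and library cannot be separated from treatment. The deposited files hold UMI counts per gene and cell barcode, unnormalized, for 8039 EM and 8333 PBS barcodes; the submitters' processing notes name CASAVA 1.8, STARsolo and mm10, and whether counting used strand is not given in the sources used here. Of 31253 genes, 31184 were found by identifier in GENCODE M21, and 667 of 675 list symbols were in the files; the other 8 are not analysed here, and the values of some named genes are not reported here. The cells, the gene lists (22 lists and 12 lists of markers) and the markers were chosen with earlier results of these data known.

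UMIs were summed over the members of each library and divided by their total (CPM). Log2 ratios of EM over PBS use no pseudocount; a count of 0 is set to a floor of 3 counts per group. Intervals at the 95% level are exact conditional binomial for ratios and Clopper-Pearson for shares, and cover counting error only. Genes with at least 20 UMIs in both groups together count as measured, and called means at least 2-fold, with no test. Named genes are the 12 highest and 12 lowest ratios with at least 50 CPM in the higher group, at least 50 UMIs and an interval that leaves out equality, the 10 highest and 10 lowest of monocytes over macrophages in both libraries, 2 highest and 2 lowest per list with at least 10 CPM, and a fixed set; left out of the first 2 kinds were rule genes, markers of other cell types, Xist, Y-linked genes, unnamed gene models, receptor segments, and genes of haemoglobin, ribosomes and mitochondria. Others were taken from the lists and named after their values were seen. No doublet caller was run; alternatives left out cells with high UMI totals or markers of other cell types. The calculation was tested on simulated counts. Python 3.11.15, numpy 2.4.6, scipy 1.17.1, pandas 2.3.3 and matplotlib 3.10.9 were used.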

Additional observations from a re-analysis of the deposited data

Results flagged for a closer look

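For 7 named genes the ratio of EM over PBS was at least 2-fold in one direction in Ly6c2 monocytes and at least 2-fold in the other in C1q macrophages, with both counting intervals clear of equality. With 1 library per group the difference between the cell classes was not tested, and the depth of the macrophages (medians of 865.5 UMIs in EM and 10324.5 in PBS) differs more than that of the monocytes.

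The anti-inflammatory cytokine gene Il10 had a log2 ratio of 2.79 in monocytes and -2.93 in macrophages, and the receptor gene Cxcr4 had 1.13 in monocytes and -1.80 in macrophages. Trem2, a lipid receptor gene of macrophages and microglia, had -1.13 in monocytes and 2.04 in macrophages. The scavenger receptor gene Cd36 had -1.60 in monocytes and 1.36 in macrophages, and the tetraspanin gene Cd9 had -1.55 in monocytes and 1.56 in macrophages. The mitotic genes Cdk1 and Ube2c had -2.38 and -2.34 in monocytes and 1.10 and 1.53 in macrophages. Ube2c rests on 4 UMIs in EM and 39 in PBS members, and Il10 on 18 and 5. In PBS, 1 cell held 79.5% of the members' Ube2c UMIs, and with equal weight per cell the monocyte value was 0.69 for Cdk1 and -0.10 for Ube2c, so neither then met the 2-fold limit in the direction given. With members thinned to 1000 UMIs, the monocyte values were -0.17 for Trem2 and -0.35 for Cd9, and with the rule applied at that depth 0.51 for Cxcr4, all short of 2-fold. The macrophage values were not recomputed under these settings.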

How the results depend on the processing

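No paired analysis was possible because there was 1 library per group, and for the same reason no replicate was left out. Over 183 gene values, 2603 values were computed under alternatives that can move a gene's own ratio. Of these, 2215 stayed within their counting interval, 366 left it without a called change of sign and 22 had a called change of sign. A change of sign was called only where the counting interval of the reported ratio left out equality. Other values that crossed 0 are thus not among the 22. A further 173 were only bounds, because 1 group had 0 UMIs of the gene, and are not counted; a minimum per gene moves counts of genes only.

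Several alternatives moved a count or share, in both directions. For selection at 1000 UMIs, every cell with at least that many was thinned to it first, and shallower cells were left out. The ratio of shares was then 1.73, and the interferon list median was 1.68. The genes at least 2-fold higher or lower in EM numbered 284 (16.3%) and 167 (9.60%). The genes higher or lower in monocytes than macrophages in EM numbered 589 and 416. With members thinned to 1000 UMIs after selection, 367 genes (14.4%) were higher and 353 (13.8%) lower in EM, and 652 and 437 over macrophages in EM. With at least 100 UMIs per gene, 289 (11.0%) were higher and 306 (11.7%) lower in EM, with 447 and 238 over macrophages in EM and 288 and 759 in PBS; with no minimum, 1081 were higher and 2273 lower, with 2441 lower than macrophages in EM and 1590 higher in PBS. Without members that held C1q the ratio of shares was 1.47, with 871 genes lower in EM and 1556 higher than macrophages in PBS. Without members that held markers of other cell types (26 EM and 7 PBS cells left) the ratio of shares was 3.62, with 186 genes higher and 70 lower in EM, 682 higher than macrophages in EM, and 7135 higher and 551 lower in PBS. Holding macrophages to the Arg1 and Mrc1 limit left 313 genes higher in PBS monocytes. Against 605 higher and 1345 lower genes in EM as reported, the split was thus nearer to even with members thinned and with the stricter minimum, and turned round with selection at 1000 UMIs and without members that held other markers.

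The called sign changes of log2 EM over PBS, whose cause was not tested, were these. With selection at 1000 UMIs: Vcan -0.85, S100a6 -0.0064, Plcb1 -0.63, Pou2f2 -0.42, Ciita 0.10, Psmb9 -0.39, Slpi -0.43, F13a1 -0.56 and Cd14 0.0082. With members thinned: Plcb1 -0.031, Ly6a 0.038 and Tgfb1 -0.092. With equal weight per cell, Cdk1 was 0.69; without members with C1q, Ccl7 was 1.32; without the deepest cells, Ccl5 was -0.16. Without members that held other markers: Vcan -0.29, Thbs1 0.57, Ly6a 0.75, F13a1 -0.93, Tnf -0.88, Cd274 0.36 and C1qa 0.59. Under the alternatives that kept at least 68 cells per group, the interferon list median lay between 1.68 and 2.35 and that of MHC class II between -1.40 and -0.76. Centring on the median of genes with at least 100 UMIs, which was -0.08 for EM over PBS in the monocytes, shifted all ratios of that comparison by that much; over all measured genes the median was -0.27.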
